A study of Mus musculus with 4 samples.

Results

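The 10 genes described here mark or maintain the satellite cell, the resident stem cell of skeletal muscle. They were chosen by symbol: Pax7, Pax3, Megf10, Vcam1, Sdc3, Sdc4, Cxcr4, Met, Cd34 and Chrdl2, and all 10 were found among the 49585 genes counted. Their RNA was measured in C2C12, an established mouse myoblast line of the C3H strain. Both groups were transduced with a retrovirus, selected with G418 at 1200 μg/ml for 7 days as pooled stable cells, grown for 2 days and then kept for 2 days in differentiation medium with 2% horse serum. The control group (n = 2 libraries) carried the empty vector pLXSN, and the other group (n = 2 libraries) overexpressed C/EBPβ, a basic leucine zipper transcription factor. The sources used here do not name the promoter that drives the transgene. Nor do the labels say whether replicates were separate transductions or cultures, so the p-values measure only how far these libraries spread, and that spread may be technical.

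Satellite cells lie between the muscle fibre and its basement membrane and are quiescent until injury. The paired-box factor PAX7 defines them in adult muscle, and its relative PAX3 precedes it in the embryo. Most of the other products are surface proteins by which the cells are sorted or through which they sense their niche: MEGF10, VCAM1 and CD34 in adhesion, the heparan sulfate proteoglycans syndecan 3 and syndecan 4, and the receptors CXCR4 and MET for the ligands CXCL12 and HGF. On entry into differentiation, satellite cell progeny reduce PAX7 while MYOD1 and myogenin rise.

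The libraries held 36461091 to 51537847 assigned fragments. Levels are given as CPM, the gene's fragments per 1000000 of the library after trimmed-mean scaling, and, wherever genes are compared with each other, as CPM per 1000 bases of exon (called FPKM here). Cebpb was at 42.7 and 41.3 CPM in the controls and at 502 and 442 CPM in the overexpressing libraries, a log2 fold change of 3.49 ± 0.11 (SE; edgeR quasi-likelihood test, Benjamini-Hochberg adjusted p = 1.38e-06). Every library therefore matched its label. The vector's own transcript and the endogenous gene were not separated in this count. The 9 markers of myoblasts and of differentiation listed for comparison were all lower in the overexpressing group, with a median log2 fold change of -1.45. With no low-count filter, however, only 5 of the 9 passed, and not all 9 passed when either empty-vector replicate was left out. Their summed level was 21706 and 23659 CPM in the controls and 5822 and 9367 CPM in the overexpressing libraries. Myog, the myogenin gene, fell from 1567 and 1728 CPM to 509 and 696 CPM (edgeR adjusted p = 0.000514). Acta1, skeletal actin, fell from 6258 and 6829 CPM to 1586 and 2878 CPM (adjusted p = 0.00560, but 0.0528 without empty-vector replicate 2). In bulk RNA, a smaller share of cells of a kind and less RNA per cell cannot be told apart.

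The satellite cell identity genes did not move as a block. Among the 8 members abundant enough to test, Sdc3 and Vcam1 rose in the overexpressing group, Megf10, Cd34 and Cxcr4 fell, and Pax7, Sdc4 and Met did not pass the test at an adjusted p of 0.05. Sdc3 had the highest fold of the risers, at 2.41-fold, and Megf10 fell by 1.46 on the log2 scale. Pax3 and Chrdl2 were at or next to 0 fragments and were not tested. The 5 calls have to be read against a background in which 43.3% of the 15886 genes tested passed: 22.4% were higher and 20.9% lower. Without empty-vector replicate 1 only Cd34 was called lower, and without empty-vector replicate 2 the number of genes called went from 6873 to 4013. The members' median log2 fold change was 0.06, against 0.01 over all genes tested. The 2 overexpressing libraries lay on one side of both controls for 6 of the 8 members, and for 75.1% of all genes tested. The members together took 0.124% and 0.112% of the fragments in the controls and 0.113% and 0.109% in the overexpressing libraries.

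**Figure D1:**
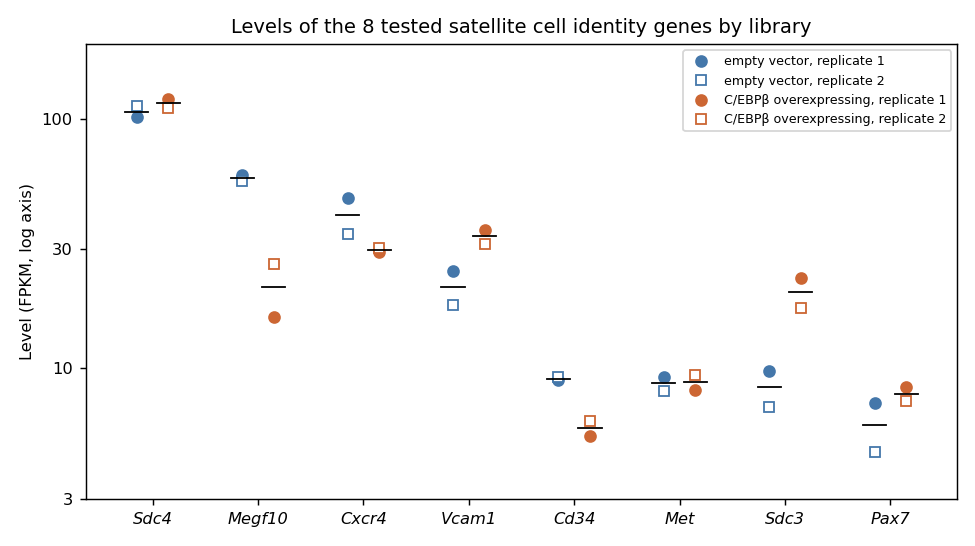
Level of each of the 8 tested satellite cell identity genes in each library, in FPKM on a log axis; filled circles are replicate 1, open squares replicate 2, blue the empty vector and orange C/EBPβ overexpression, and black lines are group means (n = 2). Megf10 and Cd34 sit lower and Vcam1 and Sdc3 higher in both overexpressing libraries, while the symbols of Sdc4 and Met overlap.

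Pax7, the transcription factor that specifies satellite cells, was at 42.6 and 27.1 CPM in the controls and at 49.2 and 43.2 CPM in the overexpressing libraries. The groups did not overlap, but the gap between the 2 controls was wider than the gap between the groups. The log2 fold change was 0.41 ± 0.22 (SE), with a 95% interval from -0.16 to 0.98 and an adjusted p of 0.203 in edgeR's quasi-likelihood test. The result turned on the empty-vector replicates: the log2 fold change was 0.77 without replicate 1 (edgeR adjusted p = 0.00525) and 0.12 without replicate 2 (adjusted p = 0.510). Pax7 also passed without overexpressing replicate 1 (0.32, adjusted p = 0.0332) and without overexpressing replicate 2 (0.48, adjusted p = 0.000289), fits whose spread rests largely on the group that keeps 2 libraries. The authors' deposited table lists Pax7 with a log2 fold change of 0.36 and an adjusted p of 0.0219. Relative to Myod1, the determination factor of committed myoblasts, Pax7 stood at 0.0606 and 0.0408 in the controls and at 0.114 and 0.0900 in the overexpressing libraries, as a ratio of FPKM. Myod1 itself fell, from 223 and 211 CPM to 137 and 153 CPM (log2 fold change -0.59, edgeR adjusted p = 0.00184), and was chosen after its values were seen.

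Pax3, which acts in embryonic muscle precursors, had 0 fragments in either control and 6 and 1 in the overexpressing libraries. Against a floor of 3 fragments set for the controls, the 7 fragments of the overexpressing group would be 2.50-fold higher after scaling. That figure takes the 7 as exact, so it is no lower bound, and it covers no difference between replicates. With all 4 libraries under 1 CPM, its level was next to nothing beside that of Pax7. The authors' deposited table gives Pax3 a log2 fold change of 1.11 with an adjusted p of 0.246. It lists a mean normalised count of 3.02 for Pax3, and which libraries entered it is not stated, so it may not rest on these counts.

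The genes on which PAX3 and PAX7 act, and the cofactors they use, were mixed. Of 14 listed and tested, 5 rose and 4 fell, with a median log2 fold change of 0.06. Myf5, a myogenic factor activated by PAX7, rose from 28.1 and 32.9 CPM to 71.2 and 59.1 CPM (log2 fold change 1.10 ± 0.12 SE, edgeR adjusted p = 0.000440). Id3, an inhibitor of bHLH factors and another direct target, rose by 1.48 on the log2 scale (edgeR adjusted p = 0.0124). Fgfr4, a growth factor receptor under PAX3 control, fell by 0.96 (edgeR adjusted p = 0.00585), and Lbx1, a homeobox gene of migrating precursors, fell by 3.70 from controls at only 0.314 and 0.613 CPM (edgeR adjusted p = 0.00335). Id3 and Fgfr4 were chosen after their values were seen. Nedd4, a ubiquitin ligase that acts on PAX7 and was the most abundant of the list, rose by 0.44 (edgeR adjusted p = 0.0216), but not without empty-vector replicate 1 (adjusted p = 0.0937) or replicate 2 (adjusted p = 0.184). The number called higher fell to 3 and 2 without those libraries.

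Megf10 showed the biggest fall of the members. It encodes an EGF-repeat transmembrane protein that sustains myoblast proliferation and interacts with Notch1. It was at 462 and 436 CPM in the controls and at 125 and 202 CPM in the overexpressing libraries, so both were below both controls. The log2 fold change was -1.46 ± 0.23 (SE), with a 95% interval from -2.04 to -0.87 (edgeR adjusted p = 0.00545). Megf10 supplied 36.6% and 38.1% of all member fragments in the controls, but 11.4% and 18.6% in the overexpressing libraries. The overexpressing libraries themselves differed by 0.70 on the log2 scale, with replicate 2 higher, and only 7.88% of genes differed by more between these replicates. All 9 markers of myoblasts and differentiation were likewise higher in overexpressing replicate 2, by a median of 0.59, and their part in the Megf10 value was not tested. The fall kept its size without empty-vector replicate 1 (-1.42, edgeR adjusted p = 0.0678) and without empty-vector replicate 2 (-1.50, adjusted p = 0.0789), yet neither fit passed. Notch1, the receptor it interacts with, fell from 132 and 129 CPM to 70.3 and 77.0 CPM (log2 fold change -0.83 ± 0.08 SE, edgeR adjusted p = 0.000245).

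Vcam1 rose while Itga4, a chain of one of its integrin partners, fell. VCAM1, an immunoglobulin-family adhesion molecule used to sort satellite cells, was at 218 and 159 CPM in the controls and at 319 and 281 CPM in the overexpressing libraries. The groups were apart and the log2 fold change was 0.67 ± 0.16 (SE), with a 95% interval from 0.30 to 1.05 (edgeR adjusted p = 0.0138). Itga4, the α4 integrin chain that binds VCAM1, fell from 8.93 and 10.3 CPM to 4.52 and 5.77 CPM (log2 fold change -0.91 ± 0.16 SE, edgeR adjusted p = 0.00339). Its β1 partner chain, Itgb1, was far more abundant and fell by 0.41 (edgeR adjusted p = 0.0302), a call lost without empty-vector replicate 1 (adjusted p = 0.127), empty-vector replicate 2 (0.154) or overexpressing replicate 1 (0.0845), and with all libraries in edgeR without robust estimation (0.0539). Itga9, whose chain also pairs with β1 to bind VCAM1, was below 1 CPM in every library and had a log2 fold change of -1.05 (edgeR adjusted p = 0.0521).

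Cd34, a sialomucin that marks quiescent satellite cells and also blood progenitors, gave the smallest adjusted p of the members. It was at 65.3 and 67.5 CPM in the controls and at 39.0 and 45.1 CPM in the overexpressing libraries. The controls were close together, while the overexpressing libraries differed by 0.21 on the log2 scale. The log2 fold change was -0.66 ± 0.09 (SE), with a 95% interval from -0.88 to -0.45 (edgeR adjusted p = 0.00110). Its family split: Podxl, the related sialomucin podocalyxin, fell from 6.24 and 4.96 CPM to 0.670 and 0.766 CPM (log2 fold change -2.97, edgeR adjusted p = 6.79e-05), whereas Podxl2, the third member of the family, rose from 14.4 and 9.53 CPM to 49.8 and 33.8 CPM (1.81, adjusted p = 0.00637). Podxl2 was chosen after its values were seen.

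The syndecans carry heparan sulfate chains that bind FGF2, HGF and other ligands, and syndecans 3 and 4 are both satellite cell markers. The data separated them. Sdc3 was at 58.5 and 42.1 CPM in the controls and at 138 and 105 CPM in the overexpressing libraries. The groups lay well apart, with a log2 fold change of 1.27 ± 0.20 (SE) and a 95% interval from 0.76 to 1.79 (edgeR adjusted p = 0.00567). Sdc4 was at 259 and 286 CPM against 307 and 282 CPM, so that the groups overlapped. Its log2 fold change was 0.11 ± 0.10 (SE; edgeR adjusted p = 0.398), and its 95% interval, from -0.12 to 0.34, lies below that of Sdc3. The ratio of Sdc3 to Sdc4 in FPKM was 0.0960 and 0.0625 in the controls and 0.191 and 0.158 in the overexpressing libraries, a group difference of 1.17 on the log2 scale, given as a description.

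The other two syndecans rose as well: Sdc1 from 183 and 175 CPM to 330 and 310 CPM (log2 fold change 0.84, edgeR adjusted p = 0.000320), and Sdc2 from 561 and 477 CPM to 698 and 755 CPM (0.49, adjusted p = 0.0131, but 0.126 without empty-vector replicate 2). Over the 4 syndecans the summed level went from 328 and 309 FPKM to 440 and 437 FPKM. Sdc3 took 2.97% and 2.27% of that sum in the controls and 5.23% and 3.999% in the overexpressing libraries, so it stayed the smallest part. Sdc4 took 30.9% and 36.4% in the controls and 27.4% and 25.3% in the overexpressing libraries. Fgf2, a growth factor ligand of these chains, rose from 12.1 and 10.1 CPM to 20.8 and 22.0 CPM (0.95 ± 0.12 SE, edgeR adjusted p = 0.000754).

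Genes that build or edit heparan sulfate did not share a direction. Of 18 listed, 17 were tested, 5 rose and 5 fell, with a median log2 fold change of 0.10. The chain polymerases Ext1 and Ext2 were called higher by 0.35 and 0.42 (edgeR adjusted p = 0.0251 and 0.00937). Neither held without empty-vector replicate 2 (adjusted p = 0.184 and 0.0799), nor did Ext1 without empty-vector replicate 1 (0.0595). Without empty-vector replicate 2 none of the list was called higher by edgeR and 2 were lower. Without empty-vector replicate 1, only 1 was lower, and without overexpressing replicate 2 the number was 3. With library sizes alone it was 2. Hs3st3b1, a 3-O-sulfotransferase, fell from 1.32 and 1.44 CPM to 0.498 and 0.465 CPM (-1.51, edgeR adjusted p = 0.00261). Sulf2, chosen after its values were seen, had the highest log2 fold change of the list but did not pass (1.06, edgeR adjusted p = 0.0817). It was at 73.7 and 41.2 CPM in the controls and at 145 and 94.1 CPM in the overexpressing libraries. Sulf2 passed as a rise in limma (adjusted p = 0.0170) and in edgeR without robust estimation (0.0191). In edgeR it also passed with a filter at 1 CPM in 2 libraries (adjusted p = 0.0361) and with replicate number as a block (5.12e-05). The log2 fold change of Sulf2 was 0.716 without overexpressing replicate 1 and 1.322 without overexpressing replicate 2.

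Proteases that shed syndecans, VCAM1 or MET from the surface, and their inhibitors, gave 3 rises and no fall among 8 tested, with 1 fall in DESeq2, with no low-count filter or without overexpressing replicate 2. Mmp2, a gelatinase, rose from 653 and 420 CPM to 1523 and 1344 CPM (log2 fold change 1.42, edgeR adjusted p = 0.00264). Mmp9 rose by 3.07 (edgeR adjusted p = 0.00209) but stayed below 1 CPM in all 4 libraries. The third rise was Timp3, an inhibitor of such proteases, from 225 and 213 CPM to 299 and 330 CPM (0.52, edgeR adjusted p = 0.00348). Adam10 and Adam17, the main sheddases of the list, did not pass (log2 fold change -0.04 and -0.10, edgeR adjusted p = 0.730 and 0.388), and the sign of Adam10 turned with library sizes alone. Timp3, Adam10 and Adam17 were chosen after their values were seen. Timp2, the most abundant of the list, had a log2 fold change of -0.28 (edgeR adjusted p = 0.118), a value that passed as a fall in DESeq2 (adjusted p = 0.0193) and with no low-count filter (edgeR adjusted p = 0.0399).

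The upstream sequences of Sdc3 and Cd34 are shown because these were the member with the highest rise and the member with the firmest fall for which a promoter was at hand. RefSeq's promoter table for GRCm38.p6 (250 bases before to 50 after each gene's start) matched 6 of the 10 members: Sdc3, Cd34, Cxcr4, Sdc4, Pax7 and Met. No window was used for Pax3, Megf10, Vcam1 or Chrdl2. Megf10, the member with the biggest fall, was left out before matching, so whether it has an entry was not tested. The bases lie upstream of the gene as annotated, on the + strand, at chr4:130792287-130792536 for Sdc3 and at chr1:194938571-194938818 for Cd34, and capitals mark each CpG.
Sdc3: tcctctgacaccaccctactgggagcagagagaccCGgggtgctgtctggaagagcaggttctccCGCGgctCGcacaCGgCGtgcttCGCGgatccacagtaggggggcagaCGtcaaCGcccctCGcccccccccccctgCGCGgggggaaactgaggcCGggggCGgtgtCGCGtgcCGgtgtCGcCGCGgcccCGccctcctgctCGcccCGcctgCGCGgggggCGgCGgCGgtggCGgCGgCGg
Cd34: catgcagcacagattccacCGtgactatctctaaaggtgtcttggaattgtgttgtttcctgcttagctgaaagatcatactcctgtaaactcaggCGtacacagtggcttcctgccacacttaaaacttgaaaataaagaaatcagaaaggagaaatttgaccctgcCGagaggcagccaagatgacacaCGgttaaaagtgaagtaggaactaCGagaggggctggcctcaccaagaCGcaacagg
The Sdc3 window was 77.7% G or C over its 300 bases and held 44 CpG, while that of Cd34 was 50% G or C with 7 CpG. The median of all 32851 promoters was 52.7% and 7 CpG. The C/EBP pattern searched, TTGCNNAA, was in 0 of the 6 members' windows on either strand, and in 10.8% of all promoters. The E-box CANNTG, bound by myogenic bHLH factors, was found only in the Met window (2 matches), against 72.3% of all promoters. These counts say only which letters stand in these windows. The windows of Pax7 and Sdc4 lie wholly inside those genes as annotated, not upstream of them. The Met window runs from position 17463707 to 17464006 and the annotated gene starts at 17463800. Both E-box matches of Met therefore lie inside the gene, not upstream of it.

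The ligands of Cxcr4 and Met, the 2 receptors for migration cues among the members, both rose, whereas Cxcr4 fell and Met did not pass. CXCR4, a chemokine receptor of migrating precursors, was at 87.0 and 62.5 CPM in the controls and at 52.9 and 54.9 CPM in the overexpressing libraries. The groups did not overlap, although the controls differed by more between themselves than empty-vector replicate 2 did from the overexpressing libraries. Cxcr4 fell by 0.47 ± 0.15 (SE) on the log2 scale, with a 95% interval from -0.84 to -0.10, and stood at the threshold (edgeR adjusted p = 0.0480). With edgeR's older quasi-likelihood method it missed (adjusted p = 0.0501), and the choice between these 2 was made after both had been computed. Without empty-vector replicate 1 the log2 fold change was -0.22 (adjusted p = 0.145), and with library sizes alone it was -0.42 (adjusted p = 0.0663). The authors' deposited table lists -0.52 with an adjusted p of 0.000663.

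Cxcl12, the ligand of CXCR4, rose from 181 and 122 CPM to 866 and 576 CPM (log2 fold change 2.25 ± 0.28 SE, edgeR adjusted p = 0.00282). The ratio of Cxcl12 to Cxcr4 in FPKM was 0.459 and 0.432 in the controls and 3.62 and 2.32 in the overexpressing libraries. Ackr3, the scavenger receptor for the same ligand, was at 47.8 and 39.1 CPM against 42.7 and 34.2 CPM (-0.17, edgeR adjusted p = 0.355), and passed as a fall only without overexpressing replicate 1 among the libraries left out (-0.34, adjusted p = 0.0208).

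Met, the receptor tyrosine kinase for HGF, was at 71.2 and 62.6 CPM in the controls and at 62.8 and 72.6 CPM in the overexpressing libraries. The groups overlapped and the log2 fold change was 0.02 ± 0.10 (SE; edgeR adjusted p = 0.915). Its 95% interval, from -0.22 to 0.25, bounds the change only as far as the spread of these libraries goes, which may be technical. Hgf, its ligand, was at 30.9 and 20.2 CPM in the controls and at 328 and 292 CPM in the overexpressing libraries. Hgf rose by 3.60 ± 0.22 (SE) on the log2 scale, or 12.2-fold (edgeR adjusted p = 0.000169), the biggest change among the 12 tested partners of the member receptors. The ratio of Hgf to Met in FPKM was 0.463 and 0.346 in the controls and 5.59 and 4.30 in the overexpressing libraries.

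**Figure D2:**
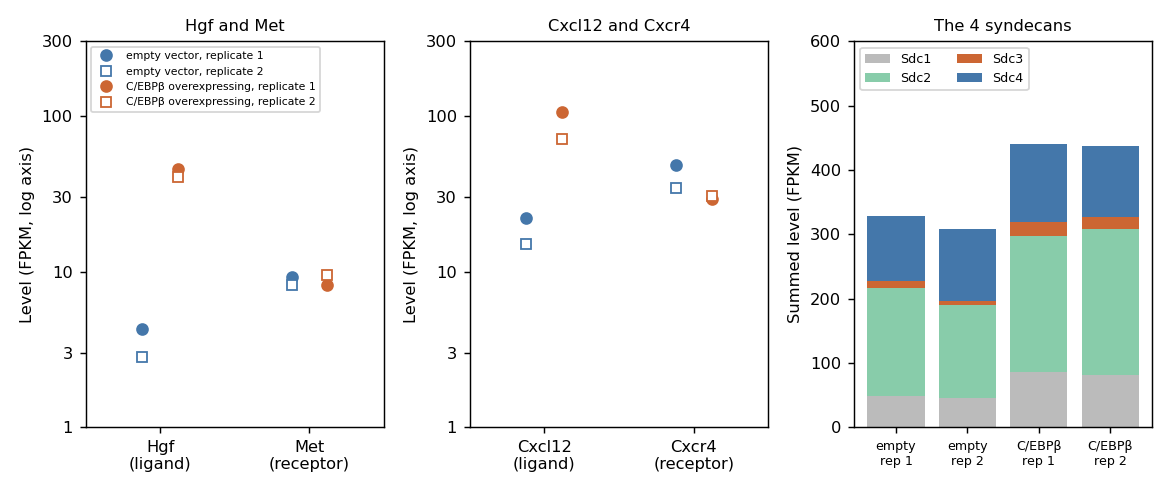
Left and middle, levels of Hgf and Met and of Cxcl12 and Cxcr4 in each library, in FPKM on a log axis, with blue for the empty vector, orange for C/EBPβ overexpression, circles for replicate 1 and squares for replicate 2; right, bars of the 4 syndecans' levels stacked by library, in FPKM from 0. Each ligand lies below its receptor in the controls and above it in the overexpressing libraries, and the summed syndecan level goes from 328 and 309 FPKM to 440 and 437 FPKM.

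Among the remaining partners of MET, 1 passed the test. Gab1, the docking protein of activated MET, rose from 41.4 and 36.2 CPM to 57.9 and 56.9 CPM (log2 fold change 0.57, edgeR adjusted p = 0.00196). Plau, the urokinase that can activate HGF, was at 203 and 230 CPM against 192 and 174 CPM (-0.24, edgeR adjusted p = 0.0882), and passed as a fall without overexpressing replicate 1 (-0.31, adjusted p = 0.0211). The inhibitors of HGF activation, Spint1 and Spint2, were under 3 CPM in every library and did not pass (0.33 and -0.98, edgeR adjusted p = 0.181 and 0.116). The activating proteases Hgfac and St14 had too few fragments to test. Of the 14 partners listed, 12 were tested, 4 rose and 3 fell.

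Chrdl2, a secreted antagonist of bone morphogenetic proteins, had 0 fragments in both controls and 1 and 0 in the overexpressing libraries. No fold can be given at that depth. Its relative Chrdl1 rose from 20.9 and 11.2 CPM to 134 and 112 CPM (log2 fold change 2.94 ± 0.34 SE, edgeR adjusted p = 0.00377), and was chosen after its values were seen. Among the 22 close relatives of the members, 13 were tested, of which 5 rose and 3 fell. Without empty-vector replicate 2 the numbers were 3 and 1. The number called lower was 1 without empty-vector replicate 1 and 5 without overexpressing replicate 1.

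Ranked by length-scaled level, the order of the members differed between the groups. In the controls it ran Sdc4 (107 FPKM), Megf10 (58.2 FPKM), Cxcr4 (41.4 FPKM), Vcam1 (21.2 FPKM), Cd34 (9.11 FPKM), Met (8.71 FPKM), Sdc3 (8.40 FPKM) and Pax7 (5.95 FPKM). From Cd34 to Pax7 each gene's libraries overlapped those of the next. In the overexpressing group it ran Sdc4 (116 FPKM), Vcam1 (33.8 FPKM), Cxcr4 (29.8 FPKM), Megf10 (21.2 FPKM), Sdc3 (20.3 FPKM), Met (8.81 FPKM), Pax7 (7.89 FPKM) and Cd34 (5.77 FPKM). There, Megf10 overlapped Sdc3 and Met overlapped Pax7. Sdc4 was thus first in both groups, and Cd34 went from rank 5 to rank 8.

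**Figure D3:**
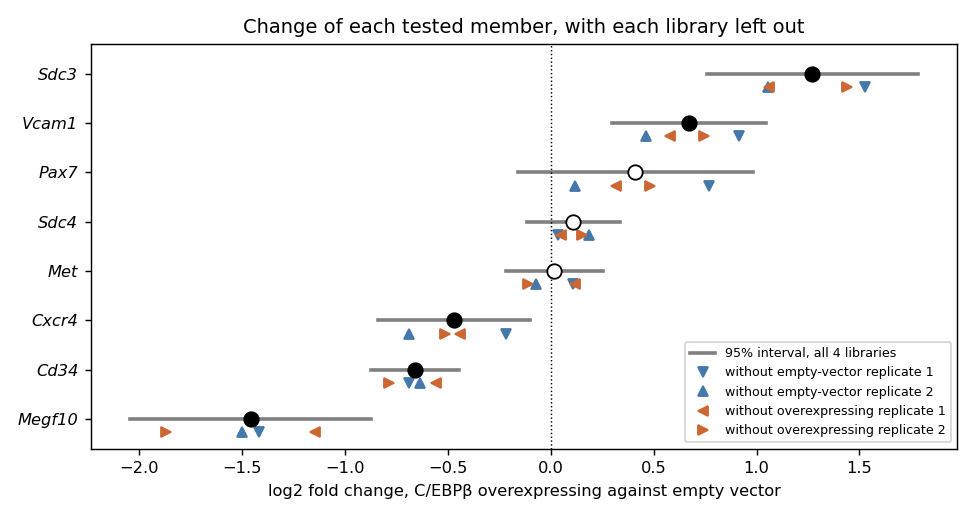
Log2 fold change of each tested member, C/EBPβ overexpressing against empty vector, with grey 95% intervals from all 4 libraries; filled circles passed at an adjusted p of 0.05, open circles did not, and triangles give the value with each library left out. Sdc3, Vcam1, Cd34 and Megf10 keep their side of 0 in every case, Cxcr4 ranges from -0.69 to -0.22 and Pax7 from 0.12 to 0.77.

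The controls differed from each other in the same direction for several members. Empty-vector replicate 2 was lower than replicate 1 for Pax7 by 0.65, for Vcam1 by 0.45, for Sdc3 by 0.47 and for Cxcr4 by 0.48 on the log2 scale. Differences larger than these were found between the controls in 6.90%, 12.8%, 11.9% and 11.9% of genes. Leaving out replicate 1 therefore raised the value of all 4 genes, and leaving out replicate 2 lowered it: Vcam1 to 0.46 (edgeR adjusted p = 0.0456) and Sdc3 to 1.05 (adjusted p = 0.0171).

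Other genes known from satellite cells were mostly lower. Of 15 listed, 13 were tested, 2 rose and 10 fell, with a median log2 fold change of -0.96 against 0.06 for the members. Over all genes tested, 22.4% were called higher and 20.9% lower. Both lists were chosen with earlier results of these data known, so the contrast between them is only a description. The list shares Cdh15 with that of differentiation, Myf5 and Fgfr4 with that of PAX targets, Itgb1 with that of partners, and Calcr, Hey1, Heyl and Spry1 with that of quiescence. The 2 that rose were Myf5, described above, and Cav1, the caveolar coat protein (1.16, edgeR adjusted p = 0.000323). Itga7, the laminin-binding integrin chain used to sort satellite cells, fell from 2841 and 2584 CPM to 876 and 1255 CPM (-1.35, edgeR adjusted p = 0.00118). Ncam1, an adhesion molecule of satellite cells and of myotubes, fell by 0.85 (edgeR adjusted p = 0.00324), and Sox8, a transcription factor of satellite cells, by 1.43 (adjusted p = 5.11e-05). Cdh15, the muscle cadherin, fell by 1.12 (adjusted p = 0.000261). Calcr, the calcitonin receptor of quiescent satellite cells, had 0 fragments in all 4 libraries, and Barx2, a homeobox factor, had at most 2. Cav1 and Ncam1 were chosen after their values were seen.

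Of 13 tested genes tied to quiescence, 7 fell and 4 rose, with a median log2 fold change of -0.46. Of the 7 falls, 3 (Hey1, Heyl and Spry1) are also counted among the other satellite cell markers. Hes1, Heyl and Hey1, bHLH genes activated by Notch, were among those that fell: Hes1 from 60.1 and 66.3 CPM to 19.2 and 24.8 CPM (-1.53, edgeR adjusted p = 0.000166), Heyl from 31.4 and 33.6 CPM to 15.4 and 17.0 CPM (adjusted p = 0.000218) and Hey1 by 1.21 on the log2 scale (adjusted p = 0.000489). Spry1, an inhibitor of FGF signalling needed for return to quiescence, fell by 0.54 (edgeR adjusted p = 0.00251), and Rb1, the retinoblastoma protein, fell by 0.74 (adjusted p = 0.00362). On the other side, Gas1, a growth arrest gene, rose by 1.36 (edgeR adjusted p = 0.00108) and Cdkn1b, the cell cycle inhibitor p27, by 0.43 (adjusted p = 0.00327). Col5a1, a chain of the collagen V that binds the calcitonin receptor and the most abundant of the list, rose by 0.49 (edgeR adjusted p = 0.0108), but not without empty-vector replicate 1 (adjusted p = 0.0506) or replicate 2 (0.111). Hey1, Spry1, Rb1, Gas1 and Cdkn1b were chosen after their values were seen.

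**Figure D4:**
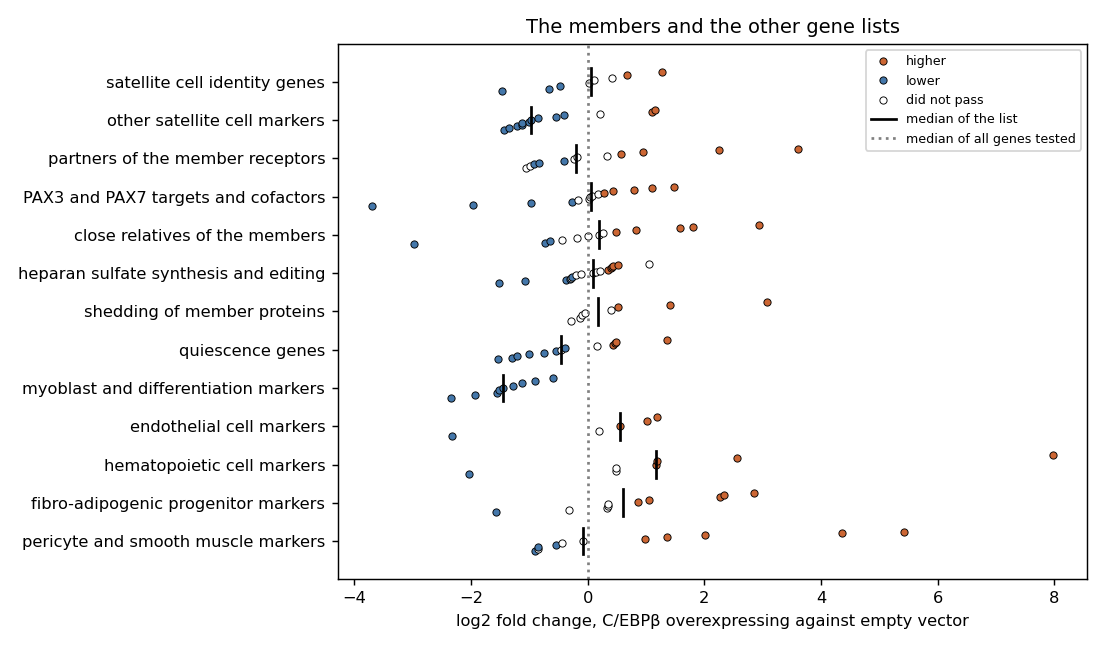
Log2 fold change of every tested gene of each list, C/EBPβ overexpressing against empty vector (n = 2 libraries a group); orange points passed as higher, blue as lower, open points did not pass, black bars are list medians and the dotted line is the median of all genes tested. The members spread on both sides of 0, the other satellite cell markers have 10 of 13 lower, and the markers of myoblasts and differentiation all lie below 0.

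Several members are also expressed outside muscle: Vcam1 and Cd34 in endothelium, Cxcr4 and Cd34 in blood cells, Cd34 in fibro-adipogenic progenitors. Markers of those cells were therefore read beside them, and their part in the members' values was not tested. The defining genes of endothelium were at or near 0: Tie1 and Emcn had 0 fragments in all 4 libraries, Cdh5 had at most 3 and Pecam1 at most 12. The 12 endothelial markers summed to 7.65 to 8.23 CPM in the controls and to 11.5 to 11.6 CPM in the overexpressing libraries. Of 5 tested, 3 were higher and 1 lower, but only 1 was higher in DESeq2 or when either empty-vector replicate was left out. The 1 that fell was Cldn5, a tight junction protein, from 0.718 and 0.989 CPM to 0.134 and 0.219 CPM (log2 fold change -2.32, edgeR adjusted p = 0.00261). Of the most abundant, Flt1, a receptor for vascular growth factors, rose from 1.73 and 1.56 CPM to 3.33 and 3.31 CPM (edgeR adjusted p = 0.00340), and Eng, a co-receptor for transforming growth factor beta, rose by 0.55 (edgeR adjusted p = 0.0258), a call lost without empty-vector replicate 1 (adjusted p = 0.0540) or replicate 2 (0.178).

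Among 12 blood cell markers, Adgre1, Kit and Tyrobp had 0 fragments in all 4 libraries and Ptprc, the pan-leukocyte antigen, had at most 1. Their sum went from 8.15 to 9.06 CPM in the controls to 41.8 to 45.1 CPM, and 4 of 7 tested rose, 1 fell. Without empty-vector replicate 1, 2 were higher, and none was called lower by edgeR without empty-vector replicate 2 or overexpressing replicate 1. DESeq2 called 2 higher and 0 lower. Most of the sum was Lyz2, the myeloid lysozyme, which rose from 0.135 and 0.0791 CPM to 28.4 and 26.1 CPM. Cd14, the lipopolysaccharide co-receptor, rose from 5.39 and 4.75 CPM to 11.9 and 10.9 CPM. The 1 that fell was Itgam, a myeloid integrin chain, chosen after its values were seen. It went from 0.426 and 0.514 CPM to 0.0383 and 0.219 CPM (log2 fold change -2.03, edgeR adjusted p = 0.0231).

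Markers of fibro-adipogenic progenitors summed to 1080 to 1290 CPM in the controls and to 1477 to 1611 CPM in the overexpressing libraries. Of 10 tested, 5 rose and 1 fell (2 fell without overexpressing replicate 1). Pdgfra, the defining receptor of these cells and chosen after its values were seen, rose from 15.5 and 8.42 CPM to 92.1 and 79.1 CPM (log2 fold change 2.84, edgeR adjusted p = 0.00351). The matrix genes Mfap5 and Dpt, with the smallest p of the list, rose by 2.27 and 2.33 on the log2 scale (edgeR adjusted p = 7.33e-06 and 9.65e-06). The 1 that fell was Lum, the proteoglycan lumican, from 5.25 and 2.71 CPM to 1.23 and 1.48 CPM (-1.56, edgeR adjusted p = 0.0128), also chosen after its values were seen. The most abundant of the list, Gsn and Dcn, did not pass (0.34 and 0.34, edgeR adjusted p = 0.0660 and 0.128). Gsn passed as a rise in DESeq2 (adjusted p = 0.0306), and in edgeR with library sizes alone (0.0337) or no low-count filter (0.0426). Dcn passed in edgeR with replicate number as a block (adjusted p = 0.01255). The log2 fold change of Gsn was 0.3617 without overexpressing replicate 1 and 0.3077 without replicate 2, and that of Dcn was 0.4901 without overexpressing replicate 2. Pericyte and smooth muscle markers, which include the muscle gene Des, summed to 6928 to 7073 CPM in the controls and 5314 to 6393 CPM in the overexpressing libraries. Of 11 tested, 5 rose and 3 fell. The rises with the smallest p were Tagln, a smooth muscle actin-binding protein, from 83.8 and 94.0 CPM to 228 and 229 CPM (log2 fold change 1.36, edgeR adjusted p = 3.83e-05), and Cnn1, smooth muscle calponin, from 0.157 and 0.138 CPM to 3.48 and 2.60 CPM (adjusted p = 6.91e-05). The other rises, chosen after their values were seen, were Pdgfrb, a defining pericyte receptor (0.98, edgeR adjusted p = 0.00250), Rgs5 (2.01, adjusted p = 0.00627) and Kcnj8 (adjusted p = 0.000620), and the last 2 stayed below 1 CPM in every library. Cspg4 and Notch3 fell (-0.55 and -0.85, edgeR adjusted p = 0.00334 and 0.000375), and were also chosen after their values were seen. The most abundant genes of the list were Acta2, at 3273 and 3285 CPM against 2760 and 3445 CPM (-0.08, edgeR adjusted p = 0.715), and Des, which fell by 0.89 (adjusted p = 0.00222).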

How the data were processed

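Stranded mRNA libraries from C2C12 cells (2 with the empty vector, 2 overexpressing C/EBPβ) were sequenced on an Illumina HiSeq. Alignment with HISAT2 2.0.4 to GRCm38, counting with featureCounts 1.4.6 and testing with DESeq2 are named in the submitters' processing notes. Per the file headers, the counter was featureCounts 1.5.1, run as fragment counts per gene with GENCODE M12 in reverse-stranded mode. Deposited values used here were these raw counts. The authors' deposited table of DESeq2 results gave mean normalised signal, log2 fold change, its standard error, a test score and p-values. The sources used here do not say which libraries entered it.

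Counts were filtered (filterByExpr, minimum count 10) and scaled by trimmed means. They were tested with edgeR 4.0.16 (R 4.3.3) by the quasi-likelihood test with robust estimation and Benjamini-Hochberg adjustment over 15886 genes, at 0.05. Its current form was taken over the older one after both had been computed. CPM used the scaled library sizes, and FPKM divided CPM by exonic length in kilobases from the count files. An exact permutation test of 2 libraries against 2 cannot go below p = 0.333, so single values were tested only in the fit across all genes. Exons of the members overlapped no other gene on the same strand, and at most 0.447% of a member's windows of 50 bases occurred in another gene. Replicates differed by more than sampling noise.

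The members and all lists were chosen with earlier results of these data known. Besides the members and Cebpb, the genes named were, in each list, the 2 tested genes with the smallest p and the most abundant one. All tested partners and the 2 most abundant markers of each other cell type were named too. Other tested genes are marked as chosen after their values were seen. Other untested genes, such as Tie1, Ptprc, Calcr and Hgfac, were named for their few fragments, outside this rule, and carry no mark. Alternatives were other scaling, filters, tools (DESeq2 1.42.0, limma 3.58.1), a replicate block and each library left out. Protein sequences were not used here.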

Additional observations from a re-analysis of the deposited data

How the results depend on the processing

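Of the members, Sdc3 and Vcam1 stayed higher and Cd34 lower, past the threshold, under all 13 alternatives, and Sdc4 never passed. Megf10 missed the threshold without empty-vector replicate 1 or 2 (log2 fold change -1.42 and -1.50), in a range of -1.869 to -1.148 over the libraries left out. Cxcr4 missed it with library sizes alone (-0.417), no low-count filter (-0.479), a filter at 1 CPM in 2 libraries (-0.466), edgeR's older quasi-likelihood method (-0.471), added after seeing the data, and without empty-vector replicate 1 (-0.217, the smallest fall with a library left out, against -0.690 without replicate 2). Pax7 passed without empty-vector replicate 1 (0.770) and overexpressing replicates 1 (0.316) and 2 (0.482), within a range of 0.118 to 0.770. Met changed sign without empty-vector replicate 2 (-0.0737) and overexpressing replicate 2 (-0.1095), never passing, and ranged up to 0.1198. Members called lower ranged from 1 to 3 over the libraries left out, and all genes called from 4013 to 7541, against 6873. Acta2 turned positive without overexpressing replicate 1 (0.0731, against -0.267 without replicate 2) and Adam10 with library sizes alone (0.0168). The cause of these changes was not tested.

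The replicate numbers are not said to mark a batch, and the deviations of same-numbered libraries correlated at 0.197 over genes. With the replicate block 7600 genes passed, Pax7 passed (0.438, adjusted p = 0.0320) and Cxcr4 did not (-0.454, adjusted p = 0.0530); no other member's call changed. For 66 of the other genes named, 814 of 851 values under an alternative kept their direction and side of the threshold. Of the rest, 17 lost the call, 18 gained one and 2 changed sign. Itgam, Cspg4 and Notch3 were not among these 66. Scaling by library sizes alone moved the median of all genes from 0.01 to 0.07. Depth limits Pax3 and Chrdl2, whose fragments cannot carry a test.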
